A study of Mus musculus with 9 samples.

Results

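The insulin-like growth factor (IGF) family was followed in osteocyte-enriched bone through 10 genes: the ligands Igf1 and Igf2, the receptors Igf1r and Igf2r, and the binding proteins Igfbp2, Igfbp3, Igfbp4, Igfbp5, Igfbp6 and Igfbp7. The genes were chosen by name, out of 18194 genes with a probe set of their own on the array, and each was read from its brightest probe set, by the mean of all 9 arrays, out of 28 probe sets for the family. Igf ligands bind Igf1r, a tyrosine kinase at the cell surface that signals through insulin receptor substrates and Akt, and they drive growth and survival of bone-forming cells. Igf2r has no kinase and carries Igf2 to lysosomes for breakdown. The binding proteins hold the ligands in blood and in bone matrix, and proteases that cut the binding proteins set the ligands free.

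RNA came from tibial shafts of CD1 wild type mice in 3 groups of 3 arrays: virgin mice, lactating mice at day 12, and mice whose pups were taken away at day 12 of lactation and that were sampled 7 days later, called post-lactation. All were 16 to 18 weeks old, the virgin mice were age-matched, and litters were held at 8 to 13 pups. Marrow and periosteum had been removed and surface cells digested away with collagenase, trypsin and EDTA before the bone was pulverised. The source field of the post-lactation samples reads virgin, so groups were taken from the titles, and no label says whether arrays hold RNA of different mice, so the p-values reflect scatter among these arrays, which may be technical. One protocol sentence speaks of femurs where the others speak of tibiae.

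All levels are RMA values on a log2 scale, on which a difference of 1 is a doubling of signal. The arrays fell into 3 array sets with 1 array of each group, within which 2.50% to 44.1% of probe sets had exactly equal values, against at most 0.00443% between sets. Virgin 1, lactation 3 and post-lactation 1 formed set 1. Virgin 2 joined lactation 2 and post-lactation 3 in set 2, and virgin 3 joined lactation 1 and post-lactation 2 in set 3. Equal values made up 2.50% to 2.72% of probe sets in set 1, 41.7% to 43.4% in set 2 and 36.1% to 44.1% in set 3. Arrays of sets 2 and 3 thus share many values across groups, which bears on their differences. The labels name no batch. Values are listed in the order of sets 1, 2 and 3. Array medians lay at 4.32 to 4.34 for set 1, at 4.80 to 4.82 for set 2 and at 4.57 for set 3. Of 14 osteocyte markers 12 had a mean above 4.87, the 40th percentile of gene means, and so did 11 of 11 red cell and 11 of 11 neutrophil markers, against 2 of 12 skeletal muscle and 0 of 6 liver markers. Above the array median, mean levels ran from 2.89 to 4.89 for osteocyte, 7.58 to 8.76 for neutrophil and 0.31 to 4.98 for red cell markers. Virgin 1 stood apart: Sost, the osteocyte's secreted Wnt inhibitor, was 8.14 there, against 13.39 in virgin 2 and 13.55 in virgin 3. Differences from virgin are therefore also given without virgin 1, as means that then hold no virgin array of set 1. Leaving out any 1 array unbalances the sets in this way, so offsets between sets enter such differences.

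Of the 10 genes, 8 had a mean above 4.87 over the 9 arrays, and Igfbp2 and Igfbp6 lay below it. No member passed limma's threshold of a Benjamini-Hochberg adjusted p under 0.05 over all genes in any of the 3 comparisons. The data give instead the levels of the family and the size of difference that 3 arrays a group left possible. In post-lactation 9 of the 10 had a higher mean than in lactation, as did 50.1% of all genes. Igf1, Igf2r, Igfbp4 and Igfbp5 were higher within every array set, as were 12.8% of all genes. This holds for the brightest probe sets. The dimmer Igf2r probe set had a mean difference of -0.12, and of 6 Igfbp4 probe sets only 1 was higher within every set.

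These 4 promoters are shown because the brightest probe sets of their genes shared the direction, higher in post-lactation than in lactation within every set. Each window is the 250 bases before an annotated transcript start, from RefSeq on GRCm38.p6, read 5′ to 3′ on the gene's strand. Those of Igf1 and Igfbp4 lie inside the gene's annotated span, since longer transcripts start further out. Capitals mark TATAAA (the TATA box core), GGGCGG (a GC box), CCAAT (the CCAAT box) or TTCNNNGAA (the pattern bound by STAT5, which relays growth hormone signals), searched on both strands.
Igf1, chr10:87860861-87861110, plus strand: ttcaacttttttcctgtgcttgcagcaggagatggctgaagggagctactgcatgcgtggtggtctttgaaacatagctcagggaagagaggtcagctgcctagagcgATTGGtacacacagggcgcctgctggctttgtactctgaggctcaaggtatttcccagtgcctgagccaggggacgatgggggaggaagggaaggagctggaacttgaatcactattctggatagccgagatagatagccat
Igf2r, chr17:12769707-12769956, minus strand: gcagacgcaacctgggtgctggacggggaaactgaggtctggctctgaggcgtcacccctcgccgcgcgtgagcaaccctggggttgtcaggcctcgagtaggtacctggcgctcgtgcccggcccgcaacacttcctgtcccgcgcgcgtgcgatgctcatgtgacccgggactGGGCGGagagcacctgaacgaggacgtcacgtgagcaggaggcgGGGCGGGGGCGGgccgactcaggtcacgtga
Igfbp4, chr11:99040994-99041243, plus strand: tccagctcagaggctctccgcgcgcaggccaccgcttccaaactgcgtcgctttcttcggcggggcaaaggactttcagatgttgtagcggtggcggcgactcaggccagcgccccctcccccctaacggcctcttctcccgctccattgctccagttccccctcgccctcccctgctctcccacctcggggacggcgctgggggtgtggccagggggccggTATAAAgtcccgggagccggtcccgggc
Igfbp5, chr1:72874866-72875115, minus strand: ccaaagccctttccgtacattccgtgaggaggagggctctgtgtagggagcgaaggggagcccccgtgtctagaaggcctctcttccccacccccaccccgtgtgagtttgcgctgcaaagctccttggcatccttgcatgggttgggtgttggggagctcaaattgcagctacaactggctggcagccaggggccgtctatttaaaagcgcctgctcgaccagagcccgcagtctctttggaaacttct

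The TATAAA of Igfbp4 begins 28 bases before the transcript start. Igf1 holds ATTGG, the reverse complement of CCAAT, beginning 142 bases before its start. Igf2r holds GGGCGG beginning 75, 31 and 25 bases before its start, and the Igfbp5 window holds none of the 4 patterns. Among 32851 RefSeq windows of this length, 12.4% held TATAAA, 32.7% GGGCGG, 33.8% CCAAT and 7.02% TTCNNNGAA. No member's window held TTCNNNGAA. Over all 10 members TATAAA was found for Igfbp4 and Igfbp6, CCAAT for Igf1, Igf2 and Igfbp6, and GGGCGG for Igf1r, Igf2, Igf2r, Igfbp2 and Igfbp7. The 4 genes of shared direction thus held no pattern in common. A match is a string of letters and not a measured binding site.

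**Figure D1:**
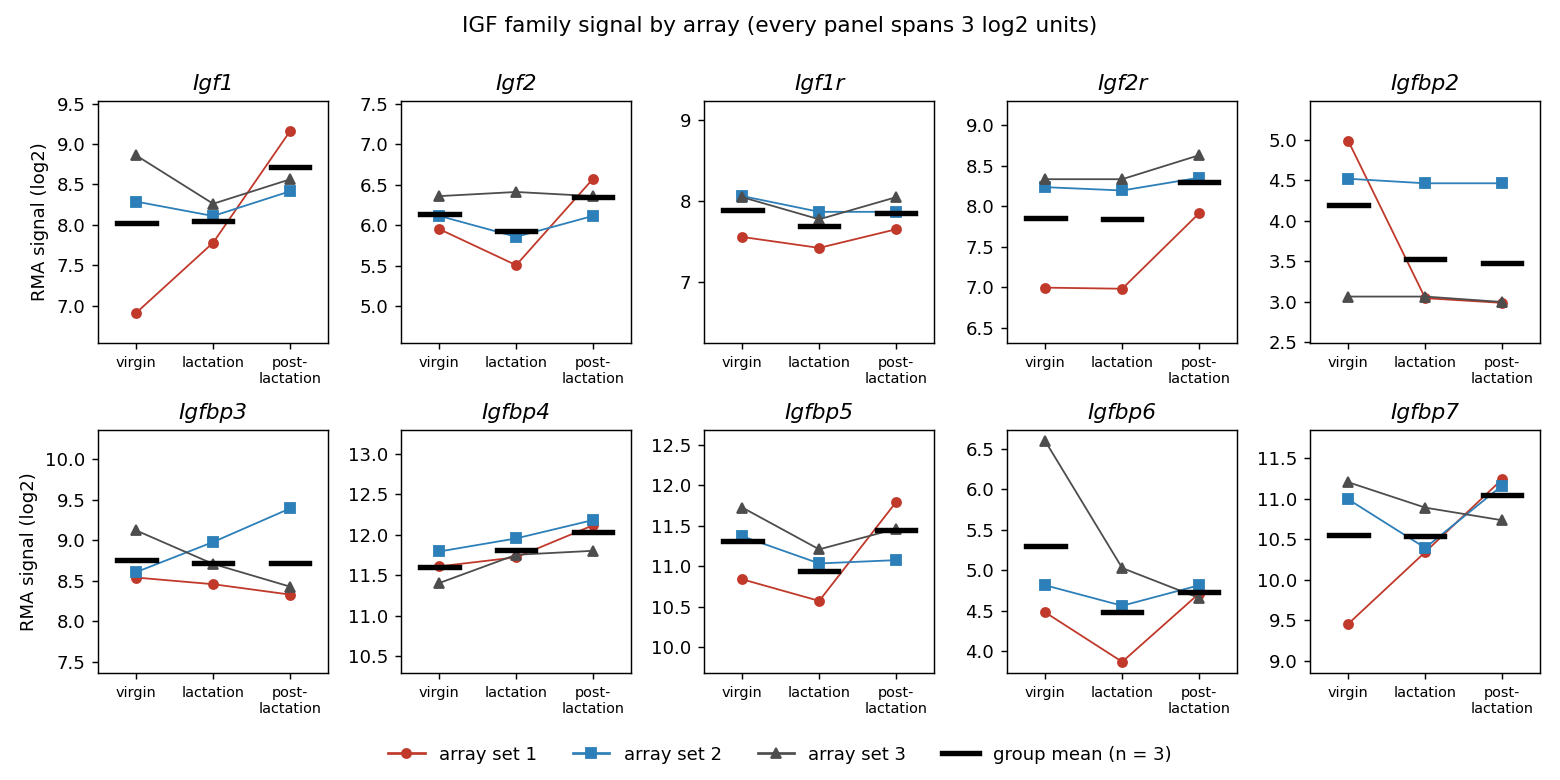
RMA signal (log2, vertical axis) of the 10 IGF family genes in virgin, lactation and post-lactation arrays. Thin lines join the 3 arrays of an array set, and black bars are group means of 3 arrays. Igf1, Igf2r, Igfbp4 and Igfbp5 go up between lactation and post-lactation in every set, as do 12.8% of all genes. The set 1 virgin array lies well below the other virgin arrays for Igf1, Igf2r and Igfbp7.

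Igf1, the ligand that growth hormone and parathyroid hormone induce, had its highest mean in post-lactation. Its probe set 1437401_at read 6.92, 8.29 and 8.86 in virgin arrays, 7.78, 8.11 and 8.26 in lactation arrays, and 9.16, 8.42 and 8.56 in post-lactation arrays. All 3 post-lactation arrays lay above all 3 lactation arrays, while the virgin arrays spanned both groups. As log2 above the array median, post-lactation 3 at 3.62 lay just under lactation 1 at 3.69. The mean was 8.71 ± 0.39 in post-lactation and 8.05 ± 0.25 in lactation (SD, n = 3 each), a difference of 0.66 (SE 0.42) or 1.58-fold. This did not pass (limma adjusted p = 1, and adjusted p = 0.561 with the array set as a block). The 95% interval ran from -0.26 to 1.58. Within sets 1, 2 and 3 the difference was 1.38, 0.31 and 0.30, so set 1 gave the largest part of it, and without post-lactation 1 it was 0.44.

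Igf1 in lactation stood at 8.05 ± 0.25, against 8.02 ± 1.00 in virgin arrays (SD, n = 3 each). The difference of 0.03 (SE 0.42) averaged opposite directions within sets, 0.87, -0.18 and -0.60. Without virgin 1, which held both the lowest Igf1 of the 9 arrays and the lowest Sost, lactation was 0.52 below virgin. For post-lactation over virgin the difference of 0.69 (SE 0.42) was 0.14 without virgin 1. By mean the order was virgin, lactation, post-lactation. Virgin and lactation did not differ beyond their spread, and virgin 1 sets the lowest place. Post-lactation and lactation did not overlap as deposited, though their difference did not pass. The SE of 0.42 is shared by the groups and so takes in the wide virgin spread. Without virgin 1 the same difference of 0.66 between post-lactation and lactation had a limma unadjusted p of 0.0290 and an adjusted p of 0.655.

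Igf1 is measured by 4 probe sets, and these went the same way. All 4 had a higher mean in post-lactation than in lactation, by 0.37 to 0.66, and 3 of them within every array set. The exception had equal values in lactation 1 and post-lactation 2. For lactation over virgin all 4 had a higher mean, by 0.03 to 0.39, and none kept its direction in every set.

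Igf2, the second ligand, is known as a fetal growth factor that is turned down after birth in mice. Its levels were 5.95, 6.11 and 6.36 in virgin arrays, 5.50, 5.85 and 6.41 in lactation arrays, and 6.57, 6.11 and 6.36 in post-lactation arrays. The groups overlapped throughout. Post-lactation was 0.42 (SE 0.26) above lactation, with 1.07, 0.26 and -0.05 within the sets, and 0.22 without lactation 3. Lactation was at -0.22 (SE 0.26) to virgin, and at -0.31 without virgin 1. The values in sets 2 and 3 were equal in post-lactation and virgin arrays to the last digit. A dimmer Igf2 probe set differed by -0.02 between post-lactation and lactation.

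Igf1r, the signalling receptor, varied little. It read 7.56, 8.06 and 8.05 in virgin arrays, 7.42, 7.87 and 7.77 in lactation arrays, and 7.65, 7.87 and 8.05 in post-lactation arrays. Lactation was lower than virgin within every set, with differences of -0.14, -0.19 and -0.27, and the groups overlapped because the sets differed more than the groups. The mean was 7.69 ± 0.24 in lactation and 7.89 ± 0.29 in virgin arrays (SD, n = 3 each), a difference of -0.20 (SE 0.23, and 0.08 with the set block). This did not pass (limma adjusted p = 1, and adjusted p = 0.614 with the set block). The interval ran from -0.70 to 0.30, or from -0.40 to -0.002 with the set block. It was -0.37 without virgin 1 and -0.07 without lactation 3. Of its 5 probe sets 4 had a lower mean in lactation than in virgin arrays, 2 of them within every set.

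Igf2r, which clears Igf2 and also delivers newly made hydrolases to lysosomes by their sugar tags, read 7.00, 8.24 and 8.34 in virgin arrays. Lactation arrays read 6.98, 8.20 and 8.34, almost the same set by set. Post-lactation arrays read 7.92, 8.35 and 8.63, each above both other arrays of its set. Post-lactation was 0.46 (SE 0.42) above lactation and 0.44 (SE 0.42) above virgin. With the set block the SE fell to 0.17, and neither passed (adjusted p = 0.266 against lactation and 0.569 against virgin). Set 1 carried most of both differences, at 0.93 and 0.92. Without lactation 3 the difference to lactation was 0.03, and without virgin 1 the difference to virgin was 0.01. Both leave set 1, where levels were lower, on 1 side only, so the offset between sets enters them. Within sets 2 and 3 the differences were 0.16 and 0.30 to lactation, and 0.12 and 0.30 to virgin. Lactation was at -0.02 to virgin, with -0.04 and 0 within sets 2 and 3. It was at -0.45 without virgin 1, where the same offset enters. The dimmer Igf2r probe set was 0.12 lower in post-lactation than in lactation by its mean, opposite to the brighter one. For lactation over virgin the dimmer probe set was 0.22 higher, with 0.37, 0.29 and 0 within the sets, where the brighter one was almost level.

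Igfbp4 had the smallest p-value of the family in post-lactation over virgin. It is a binding protein known to block Igf action until pregnancy-associated plasma protein A (Pappa) cuts it. The probe set 1437405_a_at read 11.61, 11.80 and 11.41 in virgin arrays, 11.72, 11.96 and 11.76 in lactation arrays, and 12.12, 12.18 and 11.80 in post-lactation arrays. Within each set the order was the same: virgin lowest, lactation between, post-lactation highest. Post-lactation arrays did not overlap virgin arrays, although post-lactation 2 at 11.8044 barely exceeded virgin 2 at 11.7959. As log2 above the array median these groups overlapped, with 7.23 in post-lactation 2 and 7.30 in virgin 1, and the order within each set stayed as it was. Over all genes 1.17% were higher in post-lactation than in virgin arrays without overlap, and 5.91% were higher within all 3 sets.

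The mean of Igfbp4 was 12.04 ± 0.20 in post-lactation and 11.60 ± 0.19 in virgin arrays (SD, n = 3 each). The difference was 0.43, or 1.35-fold, and it was 0.51, 0.39 and 0.40 within the sets. Its SE was 0.20 without the set block and 0.08 with it, and the 95% intervals were -0.02 to 0.88 and 0.23 to 0.63. Unadjusted p was 0.0583 and, with the block, 0.00179. Neither passed over all genes (limma adjusted p = 1 and 0.147). By mean the steps were of like size, 0.21 for lactation over virgin and 0.22 for post-lactation over lactation. Their limma adjusted p was 0.606 and 0.273 under the block. Within sets 1, 2 and 3 the steps were unlike, at 0.11, 0.16 and 0.35 for the first and 0.40, 0.23 and 0.05 for the second. Without virgin 1 the differences from virgin were 0.21 for lactation and 0.44 for post-lactation, and without virgin 3 they were 0.11 and 0.33.

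Other Igfbp4 probe sets bore on the steps unequally. All 6 had a higher mean in lactation than in virgin arrays, by 0.14 to 0.30, and 5 of them within every set. In post-lactation over virgin 5 were higher, again 5 within every set, and the dimmest had a mean difference of -0.05. For post-lactation over lactation 5 had a higher mean but only the brightest was higher within every set. The names of several of these probe sets end in _x_at or _s_at, which marks probes that can match more than 1 transcript.

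**Figure D2:**
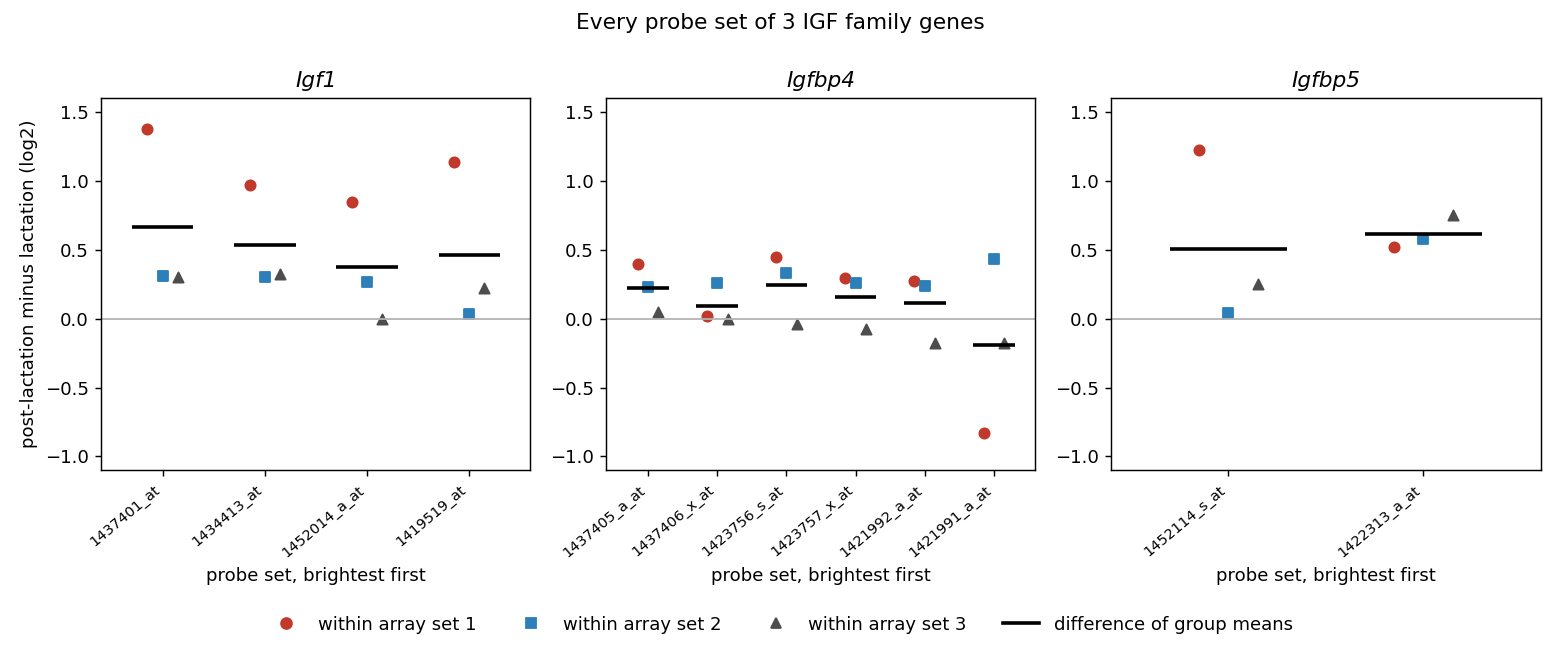
Post-lactation minus lactation (log2, vertical axis) for every probe set of Igf1, Igfbp4 and Igfbp5, brightest first. Points are differences within array sets and bars are differences of group means. All probe sets of Igf1 and Igfbp5 have bars above 0, at 0.37 to 0.66 and 0.50 to 0.61, while those of Igfbp4 run from -0.19 to 0.25.

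Igfbp5 is a binding protein that sticks to mineral and is stored in bone matrix. Its levels were 10.84, 11.37 and 11.72 in virgin arrays, 10.57, 11.03 and 11.21 in lactation arrays, and 11.79, 11.07 and 11.46 in post-lactation arrays. Within every set lactation was the lowest of the 3 groups. Lactation differed from virgin by -0.37 (SE 0.29), with -0.27, -0.34 and -0.52 within the sets. Without virgin 1 this was -0.61 and without virgin 3 it was -0.17. Post-lactation exceeded lactation by 0.50 (SE 0.29), or 1.42-fold, with 1.22, 0.04 and 0.25 within the sets and 0.32 without lactation 3. Neither passed (limma adjusted p = 1 for both, and 0.791 and 0.438 with the set block). The second Igfbp5 probe set differed by -0.29 and 0.61 in these comparisons, and for post-lactation over lactation it was higher within every set. For lactation over virgin it was not lower within every set, with 0.04, -0.70 and -0.22. The brightest Igfbp5 probe set, 1452114_s_at, has the _s_at ending as well.

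Igfbp7, which binds Igf ligands weakly and is abundant in vessel walls, followed Igf1 in virgin 1. It read 9.46, 10.99 and 11.20 in virgin arrays, 10.34, 10.39 and 10.89 in lactation arrays, and 11.24, 11.16 and 10.73 in post-lactation arrays. Virgin 1 was the lowest of all 9. Post-lactation was 0.50 (SE 0.40) above lactation and 0.50 (SE 0.40) above virgin, and neither passed (limma adjusted p = 1, and 0.616 and 0.752 with the set block). Without virgin 1 the difference of post-lactation to virgin was -0.05, and that of lactation to virgin was -0.56. The other 2 probe sets of Igfbp7 differed by 0.09 and 0.16 for post-lactation over lactation, and the mean of all 3 by 0.25.

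Igfbp3, the main carrier of Igf in blood, showed no common direction. It read 8.54, 8.61 and 9.12 in virgin arrays, 8.46, 8.98 and 8.71 in lactation arrays, and 8.33, 9.39 and 8.43 in post-lactation arrays. Group means were 8.76, 8.72 and 8.72 in that order. The difference of post-lactation over lactation was 0.00 with an interval of -0.66 to 0.67, so a change of up to that size in either direction is not excluded by these arrays. Against virgin, lactation and post-lactation both differed by -0.04, and by -0.15 without virgin 1.

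Igfbp6, which prefers Igf2 as its ligand, lay near the 40th percentile of gene means. Virgin arrays read 4.48, 4.82 and 6.60, lactation arrays 3.87, 4.56 and 5.03, and post-lactation arrays 4.71, 4.82 and 4.66. Virgin 3 was the high one of the 9 arrays. Lactation was lower than virgin within every set, with differences of -0.61, -0.25 and -1.57, and the mean difference was -0.81 (SE 0.48). It was -0.16 without virgin 3 and -1.22 without virgin 1 (limma unadjusted p = 0.0266, adjusted p = 1.00). Igfbp2, another carrier of the ligands, read 4.98, 4.52 and 3.06 in virgin arrays, 3.04, 4.46 and 3.06 in lactation arrays and 2.99, 4.46 and 3.00 in post-lactation arrays. Apart from virgin 1 all of these lay below 4.87. Post-lactation was lower than virgin within every set, but by little outside set 1, with differences of -0.06 and -0.07 in sets 2 and 3. The mean difference of -0.71 was -0.31 without virgin 1, and that of lactation to virgin, -0.67, was -0.27.

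**Figure D3:**
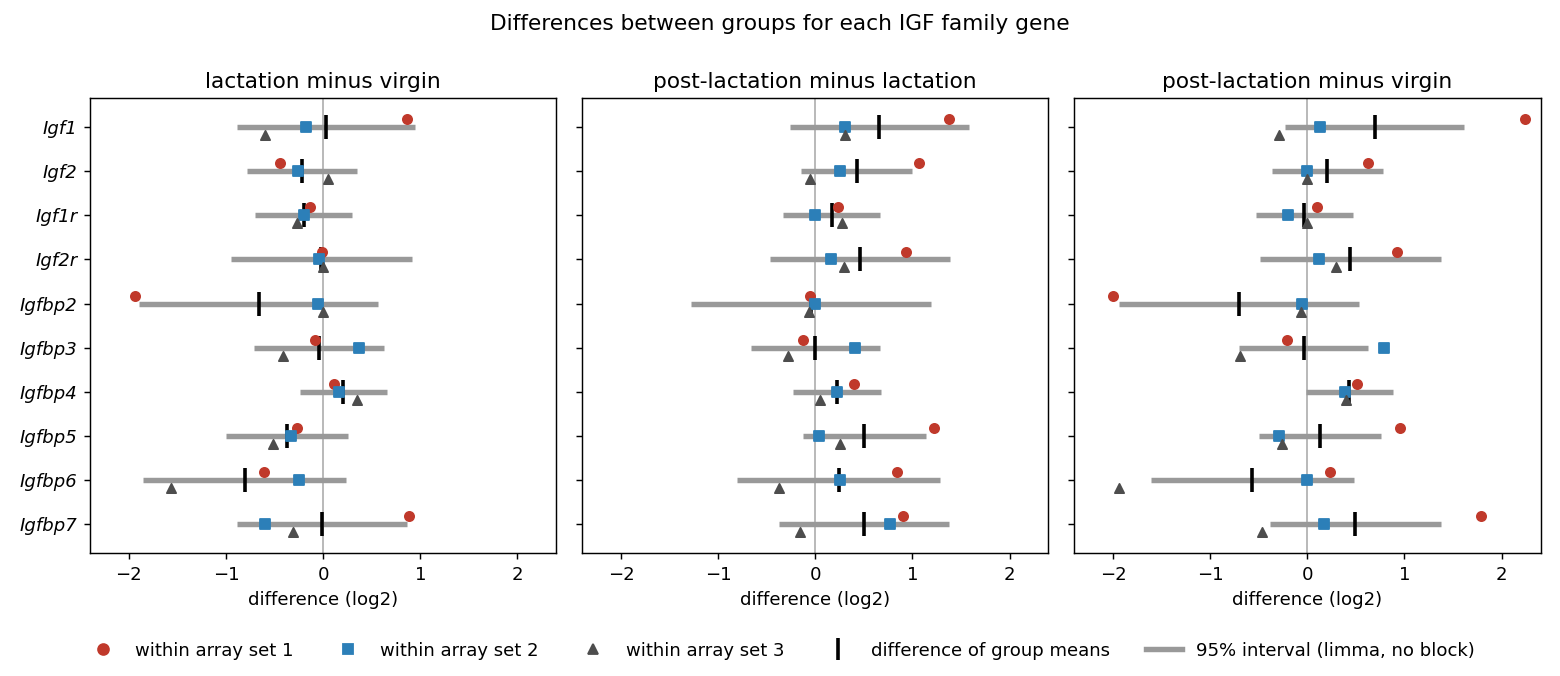
Differences between groups (log2, horizontal axis) for the 10 IGF family genes. Points are differences within array sets, black ticks are differences of group means and grey bars are 95% intervals of the limma fit without a block. Every grey bar crosses 0, and Igfbp4 in post-lactation minus virgin comes nearest to leaving it, at -0.02 to 0.88.

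The comparison of lactation with virgin asks how this osteocyte-enriched bone, with its other cells, differs while milk draws on bone mineral. Of the 10 members 2 had a higher mean in lactation, with a median difference of -0.12, while 52.5% of all genes had a higher mean and their median difference was 0.01. By limma 0 of 10 were called, where 0% of all genes were called, and 0 of 10 had an unadjusted p under 0.05, where 1.80% of all genes had one. With the array set as a block 0 of 10 were called, where 0.0220% of all genes were, and 2 (Igf1r, lower, and Igfbp4, higher) had an unadjusted p under 0.05, where 8.01% of all genes had one. No member's groups were free of overlap, where 2.06% of all genes were higher and 0.698% lower without overlap. Igf1r, Igfbp5 and Igfbp6 were lower within all 3 sets, as were 6.11% of all genes, and Igfbp4 alone among members was higher within all 3, as were 10.4%. Median differences within the sets were -0.11, -0.19 and -0.29. The median was -0.41 without virgin 1 and 0.04 without lactation 3. With the set block and without virgin 1 it was -0.26, with 2 of 10 higher.

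In post-lactation over lactation, which asks what follows the end of milk production, the family leaned the other way. A higher mean was found for 9 of 10 members, with a median difference of 0.33, against 50.1% of all genes and a median of 0.00. By limma 0 of 10 were called, where 0.709% of all genes were called, and with the set block again 0, where 3.53% were. Higher within all 3 sets were 4 members, Igf1, Igf2r, Igfbp4 and Igfbp5, as were 12.8% of all genes. None was lower within all 3 sets, as were 16.1% of all genes. Igf1 was the member whose groups did not overlap, as was the case for 3.26% of all genes in that direction and 4.38% in the other. An unadjusted p under 0.05 was reached by 0 of 10 without and 2 of 10 (Igf2r and Igfbp4) with the set block, where 5.06% and 15.1% of all genes reached it. The lean lay mainly in set 1, where the median was 0.87, against 0.24 in set 2 and -0.001 in set 3, and it was 0.11 without lactation 3.

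Lactation 3 gave the lowest lactation value for 10 of 10 members, as it did for 56.7% of all genes. After subtraction of each array's median it was the lowest for 2 of 10 members and for 23.4% of all genes.

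Post-lactation mice were also set against virgin mice, which had not been through the cycle. The median difference over the 10 members was 0.17, with 6 of 10 higher, where 50.9% of all genes were higher. By limma 0 of 10 were called, where 0.176% of all genes were called, and 0 of 10 with the set block, where 0.451% were. Igf2r and Igfbp4 were higher within all 3 sets, as were 5.91% of all genes, and Igfbp2 was lower within all 3, as were 8.15%. Igfbp4 was higher without overlap as deposited, as were 1.17% of all genes, though not above array medians, and no member was lower without overlap, as were 1.49% of all genes. An unadjusted p under 0.05 was reached by 0 of 10 without a block, where 2.09% of all genes reached it. With the set block Igf2r and Igfbp4 reached it, where 8.11% of all genes did. Without virgin 1 the median was -0.08 with 4 of 10 higher, and with the set block as well it was -0.02 with 5 of 10 higher. The 3 comparisons share arrays in pairs, so these counts are not independent of each other.

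Markers of other cells moved beside the family. In bulk bone, fewer cells of a type and less RNA per cell cannot be told apart. For post-lactation over lactation, marrow stroma markers had a higher mean in 9 of 11 cases with a median of 0.36, and 0.80, 0.22 and 0.00 within the sets. Their mean level, as log2 above the array median, ranged from 4.16 to 4.82 in post-lactation and from 3.97 to 4.28 in lactation arrays. Endothelial markers had a higher mean in 10 of 12 cases with a median of 0.31, with levels of 2.93 to 3.58 in post-lactation and 2.87 to 3.11 in lactation arrays. All 11 stromal and 12 endothelial markers averaged above 4.87, and 0 of either list were called without or with the set block. Osteoblast and bone matrix markers had a higher mean in 4 of 10 cases, with a median of -0.09. Osteocyte markers had one in 9 of 14 cases, with a median of 0.03. All 11 red cell markers had a lower mean, 10 of them called without and 11 with the set block, with a median of -4.76 and levels of 0.31 to 0.99 in post-lactation and 4.56 to 4.98 in lactation arrays. All 9 B lymphocyte markers had a higher mean (median 1.24), of which 0 were called without and 1 with the set block. Osteoclast markers had a lower mean in 9 of 10 cases (median -0.98), with 0 called without and 5 with the set block. For lactation over virgin, osteoclast markers had a higher mean in 9 of 10 cases (median 1.19, and 1.09 without virgin 1), with 0 called without and 1 with the set block. Red cell markers had a higher mean in 11 of 11 (median 1.22, and 1.12 without virgin 1) and neutrophil markers a lower mean in 11 of 11 (median -0.33, and -0.16 without virgin 1), and 0 of either were called. Osteocyte markers had a higher mean in 12 of 14 (median 0.26), but in 1 of 14 without virgin 1 (median -0.51). Marrow stroma markers did so in 5 of 11 (median -0.06), and in 1 of 11 without virgin 1 (median -0.22). B lymphocyte markers did so in 3 of 9 (median -0.01), and in 1 of 9 without virgin 1 (median -0.73). Of these lists 0 were called without or with the set block. For post-lactation over virgin, 11 of 11 red cell markers had a lower mean (median -3.49). Of these, 8 were called without and 8 with the set block. A higher mean was found for 9 of 9 B lymphocyte (median 1.23), 12 of 12 endothelial and 10 of 10 macrophage markers. It was also found for 12 of 14 osteocyte markers, a list with medians of 1.41, -0.18 and -0.15 within the sets. In the lists with higher means 0 markers were called. The part of these cells in the family's values was not tested.

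In virgin 1 the osteocyte list stood at 2.89 above the array median, against 4.50 and 4.89 in virgin 2 and 3, and the marrow stroma list at 3.98, against 4.19 and 4.34. Igf1 on that scale was 2.60 in virgin 1, against 3.47 and 4.29, and Igfbp7 5.14, against 6.18 and 6.63. On that scale virgin 1 was the lowest virgin array for 5 of 10 members and for 28.5% of all genes, and as deposited for 8 of 10 members and 58.8% of all genes. The part of the osteocyte share in these values was not tested.

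**Figure D4:**
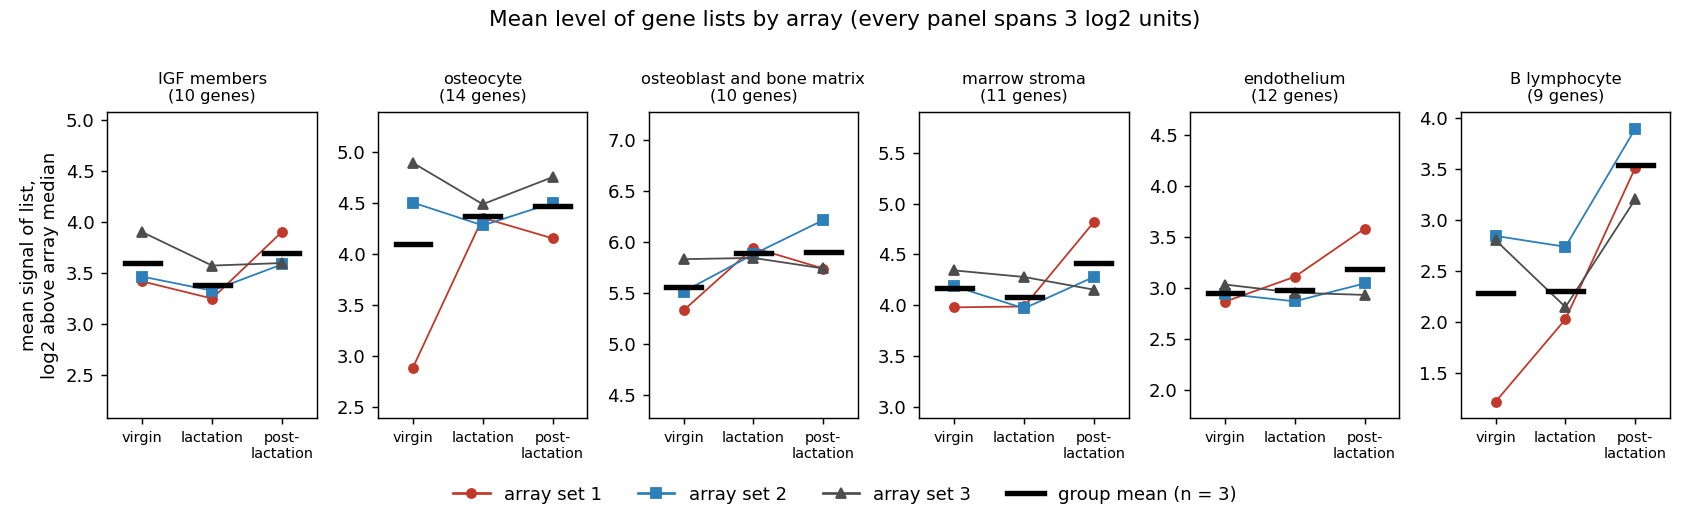
Mean level of the IGF family and of 5 marker lists (log2 above the array median, vertical axis) in virgin, lactation and post-lactation arrays. Thin lines join the arrays of a set, and black bars are group means of 3 arrays. The osteocyte list is low in the set 1 virgin array at 2.89, and the IGF family and marrow stroma lists are both high in the set 1 post-lactation array, at 3.90 and 4.82. The IGF family is also at 3.90 in the set 3 virgin array, where marrow stroma is at 4.34.

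A list of 13 further genes around the ligands held carriers (such as Igfbp1 and Igfals), proteases of binding proteins, the protease inhibitors Stc1 and Stc2, and Igf2bp genes, which bind RNA and not Igf. Of these 11 were measured and 5 averaged above 4.87. By limma 0 were called in any comparison, without or with the set block. Pappa, the protease that cuts Igfbp4, read 5.95, 5.54 and 6.07 in virgin arrays, 5.83, 5.94 and 6.07 in lactation arrays and 6.92, 6.51 and 6.07 in post-lactation arrays. It was 0.55 (SE 0.25) higher in post-lactation than in lactation (adjusted p = 0.98, and 0.331 with the set block), with 1.09, 0.57 and 0 within the sets. Htra3, a secreted serine protease that can bind Igf-binding proteins, ran the other way. It read 8.23, 8.39 and 8.06 in lactation arrays, all above the virgin arrays at 6.98, 7.47 and 7.64, as were 2.06% of all genes. The Htra3 difference was 0.86 (SE 0.25, adjusted p = 1, and 0.242 with the set block), and 0.67 without virgin 1. Post-lactation arrays at 7.56, 7.93 and 7.19 lay below all lactation arrays, as was the case for 4.38% of all genes. Pappa2, a related protease, averaged 3.47 in post-lactation and 3.18 in lactation, and the circulating partners Igfbp1 and Igfals were also below 4.87 in every group.

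Downstream of the receptor 31 of 34 signalling genes were measured and 30 averaged above 4.87. None was called by limma without a block, and 1 or fewer had an unadjusted p under 0.05 in each comparison. For post-lactation over lactation 13 had a higher and 18 a lower mean, with a median of -0.03. With the set block Foxo3, a transcription factor that Akt signalling holds out of the nucleus, fell in post-lactation (adjusted p = 0.0436, and 0.871 without the block). It was 1 of 31 genes called in that fit, where 3.53% of all genes were called, a share near the background. Foxo3 read 8.13, 8.46 and 8.39 in post-lactation arrays and 8.62, 9.25 and 9.03 in lactation arrays, which did not overlap, a difference of -0.64 (SE 0.27, and 0.12 with the block). Lower without overlap in this comparison were 4.38% of all genes.

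Grb10, an adaptor that dampens Igf1r and insulin receptor signalling, was above every virgin array in every lactation array, as were 2.06% of all genes. Genes of these lists were named for their small p, so such separation is not independent of the choice. Grb10 read 8.29, 8.47 and 8.20 in lactation arrays and 7.05, 7.85 and 7.93 in virgin arrays. The difference was 0.71 (SE 0.25, adjusted p = 1, and 0.276 with the set block). It was 1.24, 0.62 and 0.28 within the sets, and 0.43 without virgin 1. Sos1, which passes the signal to Ras, was -0.54 (SE 0.33) in post-lactation over virgin, with -0.38, -0.63 and -0.62 within the sets (adjusted p = 1, and 0.198 with the set block), and -0.86 without virgin 1.

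Among 9 genes of the growth hormone axis, the hormonal input to Igf1, 8 were measured and 0 were called, without or with the set block. Ghr, the growth hormone receptor, read 6.67, 7.89 and 7.76 in virgin arrays, 7.57, 7.70 and 7.53 in lactation arrays and 8.12, 8.41 and 7.71 in post-lactation arrays. It was higher in post-lactation than in lactation within every set and the groups barely did not overlap, with a mean difference of 0.48 (SE 0.32, adjusted p = 1). Over all genes 12.8% were higher within all 3 sets and 3.26% were higher without overlap. As log2 above the array median the Ghr groups overlapped, with 3.14 in post-lactation 2 and 3.25 in lactation 3. Stat5b, which carries the receptor's signal, differed by 0.22 in that comparison, and Socs1, an inhibitor of the pathway, averaged below 4.87 in every group.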

How the data were processed

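The authors deposited 1 log2 value for each of 45101 probe sets and 9 arrays, made with RMA per the submitters' processing notes and in GenePattern and Bioconductor per the labels; versions: not given in the sources used here. No unused sample column was present. Values ran from 1.55 to 14.9 and none was missing. The supplied annotation named 1 gene for 34958 probe sets, several for 932 and none for 9211; 1 probe set naming a member with another gene was not used. The brightest probe set of each of 18194 genes was fitted with limma 3.58.1 in R 4.3.3 (lmFit, eBayes, group means, 9 arrays, 6 residual degrees of freedom), with Benjamini-Hochberg adjustment over all genes. The fit was also run on simulated data, with less scatter than these arrays and with larger changes than the members showed. That run does not measure power for the members. The same fit with the array set as a block left 4 residual degrees of freedom. Deviations from group means correlated at 0.47 to 0.73 between arrays of 1 set and at -0.41 to 0.67 between arrays of 1 replicate number, so the titles' numbers do not pair the arrays. Arrays in a set were linked where over 0.5% of probe sets were equal. Named were all members, called genes of the pathway lists and otherwise the 3 of smallest p per list. Members, lists and tests were chosen with earlier results of these data known. Motifs were counted in RefSeq windows with Python 3.11.15. Alternatives are given at the end.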

Additional observations from a re-analysis of the deposited data

How the results depend on the processing

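With any of 19 alternatives, 0 members were called in each comparison. These were the array set block, the replicate block (the titles' numbers, 0 members called in each comparison), normalization of all 9 arrays together, centring on array medians, genes above the 40th percentile (8 members tested), the mean of all probe sets, an intensity trend, leaving out each array, and 3 added after seeing the data, which joined the set block with leaving out virgin 1, leaving out set 1 or joint normalization. The smallest adjusted p of any member was 0.333 for lactation over virgin, 0.222 for post-lactation over lactation and 0.141 for post-lactation over virgin. Genes called overall ranged from 0 to 4, from 0 to 927 and from 0 to 84, against 0, 129 and 32 by the fit without a block, 4, 642 and 82 with the set block and 1, 205 and 41 after joint normalization. The sign held throughout for 6, 7 and 3 of 10 members, and Igfbp4 was the member for which it held in all 3 comparisons. Not every alternative could change a sign. The set block, the replicate block, the intensity trend and the percentile cut, each used alone, leave a mean difference as it was. So does leaving out 1 array of the group outside a comparison. On leaving out 1 array, the number of members with a higher mean ranged from 1 to 5, 7 to 10 and 4 to 9. Equal values left 8 of 90 within-set member differences at exactly 0, with 0 in set 1, 4 in set 2 and 4 in set 3. Having 3 arrays a group limits precision.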
